A study of Mus musculus with 6 samples.

Results

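Messenger RNA of the 7 keratin genes of the basal and suprabasal epidermis was followed in newborn mouse skin. The set holds the basal keratins Krt5, Krt14 and Krt15 and the suprabasal keratins Krt1, Krt10, Krt2 and Krt77, picked by symbol from the 54532 genes of the count table, and all 7 were present. The samples were 6 epidermis libraries, of which 3 carry the genotype label Paxbp1 knockout and 3 the label wild type (control in the study's design text). All came from newborn mice whose epidermis had been peeled from the dermis after overnight Dispase II, and the RNA was sequenced. The sources used here do not give the allele, the exons removed, any Cre driver, the strain or the number of animals per library. The p-values therefore measure the spread between these libraries.

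Keratins are the intermediate filament proteins of epithelial cells. A filament is built from heterodimers of an acidic type I and a basic type II chain, so the genes are used in pairs. Dividing basal keratinocytes make keratin 5 (type II) with keratin 14 (type I), and keratin 15 is a further type I chain of basal cells. When a cell leaves the basal layer it turns to keratin 1 (type II) and keratin 10 (type I). Keratin 2 is a late suprabasal type II chain of certain body sites, and keratin 77 is a minor type II relative of keratin 1.

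Depth ran from 16315317 to 17816327 counts per library. Values are listed in the order of replicates 1, 2 and 3 throughout. Paxbp1 had 2007, 1159 and 1467 counts with the wild type label and 2370, 1127 and 1125 counts with the knockout label (log2 fold change 0.10 ± 0.29 SE, edgeR adjusted p = 0.783). The targeted gene was thus not lower at the level of the whole gene, and "knockout" below always means a library with that label, compared with the wild type label. Over 16471 genes tested, 25.1% were lower and 28.7% higher in the knockout (edgeR adjusted p under 0.05). In 30.4% all 3 knockout libraries lay below all 3 wild type libraries. The median log2 fold change over all genes tested was -0.029. The tissue label was checked on 20 epithelial genes that are no keratins, among them the adhesion genes Cdh1 and Dsp. Their summed level was 14786 to 20699 CPM (counts scaled to library size) in the wild type and 2288 to 5917 CPM in the knockout, and none was at 0 in every library.

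The type I genes lie in the keratin cluster on chromosome 11 and the type II genes in that on chromosome 15, all on the minus strand (mm10). Krt10 spans chr11:99385254-99389364, Krt15 chr11:100131758-100135928 and Krt14 chr11:100203162-100207548. Krt5 spans chr15:101707070-101712898, Krt2 chr15:101810689-101818169, Krt1 chr15:101845426-101850794 and Krt77 chr15:101858731-101869705. RefSeq promoter windows (GRCm38.p6, from 250 bases before to 50 after a start site) matched 5 of the 7 symbols, and Krt1 and Krt15 had no match. The window listed for Krt14 belongs to a shorter transcript inside the gene and is not printed. The 150 bases before the start of the other 4 are shown, because their levels differed. Krt5, Krt10 and Krt77 fell together, whereas Krt2, in the type II cluster of Krt5 and Krt77, had almost no reads in either group. Capitals mark matches to 5 motifs searched on both strands, and no match overlapped another in these windows. The TATA box was searched as TATAAA, and the site bound by AP-1 factors was searched as TGANTCA. Sites of C/EBP factors were searched with the letters TTGCNNAA, and those of the AP-2 family with the letters GCCNNNGGC. The GC box bound by Sp and Klf factors was searched with the letters GGGCGG. Sequences read from 5′ to 3′ on the gene's strand.
Krt5 (basal, type II, chr15:101712906-101713055, minus strand): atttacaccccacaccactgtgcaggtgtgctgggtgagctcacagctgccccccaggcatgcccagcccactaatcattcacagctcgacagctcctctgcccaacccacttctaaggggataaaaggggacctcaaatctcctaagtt
Krt10 (suprabasal, type I, chr11:99389365-99389514, minus strand): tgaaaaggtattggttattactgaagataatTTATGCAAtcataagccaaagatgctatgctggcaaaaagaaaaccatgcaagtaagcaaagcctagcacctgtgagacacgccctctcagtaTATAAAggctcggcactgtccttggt
Krt77 (suprabasal, type II, chr15:101869706-101869855, minus strand): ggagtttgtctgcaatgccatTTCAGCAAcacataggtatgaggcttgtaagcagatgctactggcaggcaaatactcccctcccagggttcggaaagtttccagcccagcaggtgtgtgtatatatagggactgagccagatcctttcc
Krt2 (suprabasal, type II, chr15:101818170-101818319, minus strand): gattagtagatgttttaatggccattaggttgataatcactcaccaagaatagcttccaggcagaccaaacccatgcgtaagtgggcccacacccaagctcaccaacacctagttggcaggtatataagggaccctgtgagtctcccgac

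The Krt10 window held a TATAAA beginning at base -26 and a C/EBP match beginning at base -119, counted from the start site. The Krt77 window held a C/EBP match beginning at base -129. No motif searched was found in the Krt5 and Krt2 windows. Of all 32851 promoter windows in the table, 13.6% held TATAAA, 10.8% the C/EBP letters, 7.81% the AP-1 letters, 16.6% the AP-2 letters and 35.7% the GC box. These matches describe the letters and do not show that a factor binds there.

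All 6 members with enough counts to be tested were lower in the knockout, by 2.65-fold for Krt14 up to 73.7-fold for Krt15. The seventh, Krt2, was close to 0 throughout. For each of the 7 genes every knockout library lay below every wild type library. Over all genes tested 25.1% were called lower, and 30.4% had every knockout library below every wild type library. Together the 7 genes took 7.40%, 10.1% and 6.97% of all counts in the wild type, against 1.05%, 0.953% and 0.357% in the knockout. The median log2 fold change of the 6 tested members was -3.63. In whole tissue, fewer cells of a type and less RNA per cell cannot be told apart.

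**Figure D1:**
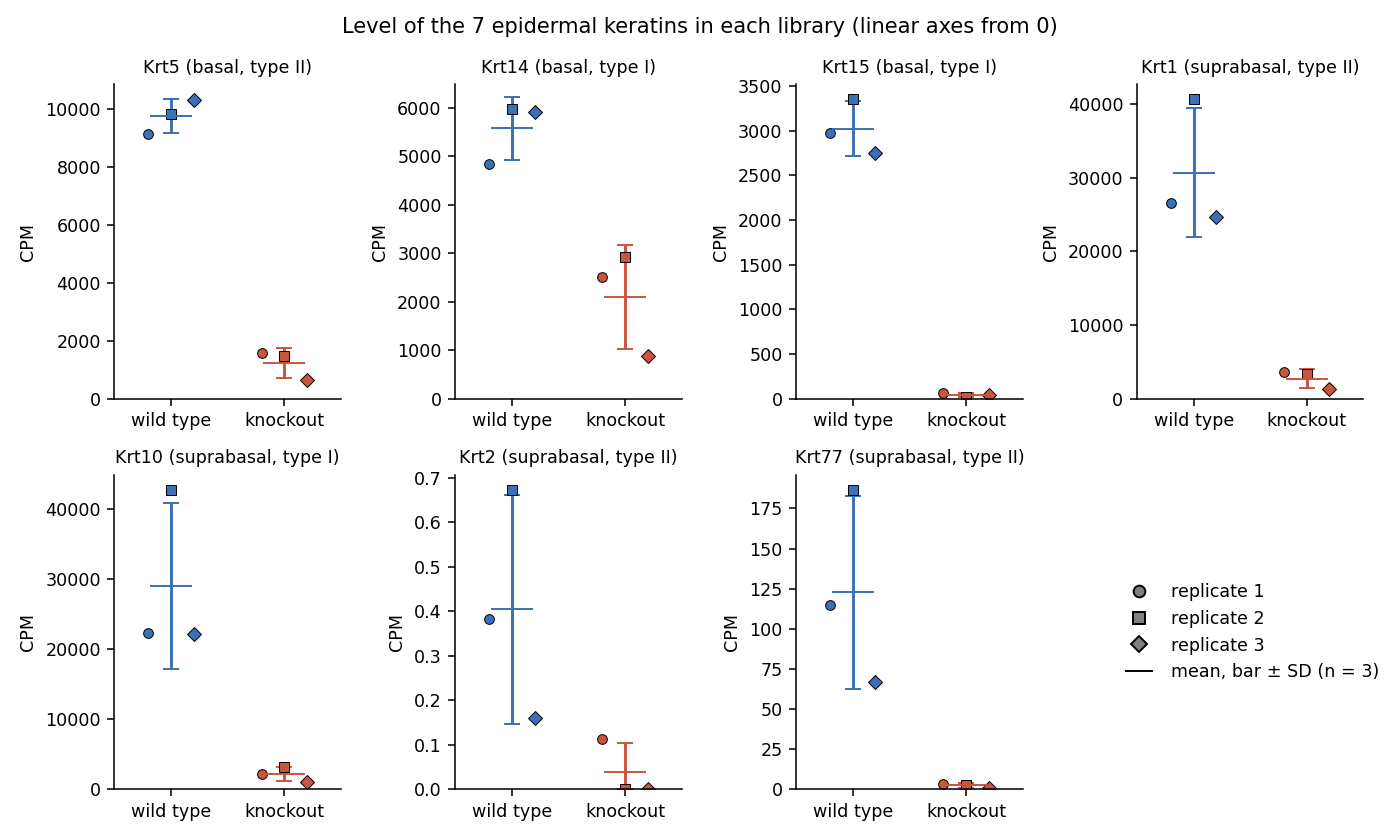
Level in CPM (counts scaled to library size with TMM factors, linear axes from 0) of each keratin in the 3 wild type (blue) and 3 knockout (red) libraries, with horizontal mean marks and bars of 1 SD, cut at 0 where the SD exceeds the mean. Every red point lies below every blue point, and knockout replicate 3 (diamond) is the lowest knockout point for Krt5, Krt14, Krt1, Krt10 and Krt77.

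The basal type II gene Krt5 stood at 9134, 9834 and 10326 CPM in the wild type and at 1576, 1465 and 629 CPM in the knockout. The wild type libraries were close to each other, and knockout replicate 3 was the lowest library. Krt5 was 7.98-fold lower (log2 fold change -2.997 ± 0.43 SE, edgeR adjusted p = 0.000169). Its type I partner Krt14 stood at 4837, 5977 and 5919 CPM in the wild type and at 2504, 2926 and 880 CPM in the knockout. The groups did not overlap, and knockout replicate 3 was again the lowest. Krt14 was 2.65-fold lower (log2 fold change -1.41 ± 0.45 SE, edgeR adjusted p = 0.0206), and the call was lost when wild type replicate 2 (edgeR adjusted p = 0.0559) or wild type replicate 3 (0.0621) was left out, and with limma on FPKM values (adjusted p = 0.0699 and 0.0882).

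Krt15, the other basal type I gene, behaved unlike Krt14. It stood at 2969, 3349 and 2746 CPM in the wild type and at 64.3, 14.3 and 44.3 CPM in the knockout. Here knockout replicate 2, which had the highest Krt14, was the lowest library. Krt15 was 73.7-fold lower (log2 fold change -6.20 ± 0.57 SE, edgeR adjusted p = 6.41e-06), and 0.644% of all genes tested had a log2 fold change as low or lower.

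The main suprabasal pair fell to a similar degree. Krt1 stood at 26616, 40711 and 24674 CPM in the wild type and at 3577, 3307 and 1279 CPM in the knockout. Krt10 stood at 22244, 42690 and 22093 CPM in the wild type and at 2195, 3110 and 1102 CPM in the knockout. Wild type replicate 2 was the highest library for both genes and knockout replicate 3 the lowest. Krt1 was 11.3-fold lower (-3.49 ± 0.52 SE on the log2 scale, edgeR adjusted p = 0.000209). Krt10 was 13.6-fold lower (-3.76 ± 0.54 SE, edgeR adjusted p = 0.000158).

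The minor type II gene Krt77 fell further, from 115, 187 and 66.6 CPM in the wild type to 3.51, 2.87 and 0.805 CPM in the knockout. The knockout values rest on 62, 44 and 13 counts. Krt77 was 50.9-fold lower (-5.67 ± 0.54 SE on the log2 scale, edgeR adjusted p = 8.29e-06), and its log2 change was -4.45 on the log2(FPKM + 1) scale. Krt2 had 7, 11 and 3 counts in the wild type and 2, 0 and 0 in the knockout, too few for the expression filter. The ratio of its summed counts, knockout over wild type per count sequenced, was 0.0933 (exact 95% counting interval 0.0106 to 0.382, which covers counting error only). Without the filter the edgeR adjusted p of Krt2 was 0.0649, so no fall was called.

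Levels of different keratins were compared per length, as FPKM (counts scaled to gene length and library size). In the wild type the order was Krt10 (13430 ± 5651 FPKM, SD, n = 3), Krt1 (6791 ± 2016), Krt5 (4339 ± 318), Krt14 (3100 ± 400), Krt15 (1669 ± 182), Krt77 (40.9 ± 20.5) and Krt2 (0.151 ± 0.0978). No neighbours in this order overlapped between libraries. The deposited length of Krt1 is 4415 bases and counts 2 retained-intron transcripts, whereas its spliced coding transcript has 2455 bases in GENCODE M21. Per that transcript Krt1 had 9852 to 16387 FPKM in the wild type against 10188 to 20145 for Krt10, and the first 2 places overlapped.

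In the knockout the top of the order changed. Krt14 had 1186 ± 603 FPKM, Krt10 1002 ± 466, Krt1 611 ± 279, Krt5 552 ± 231, Krt15 23.1 ± 14.1, Krt77 0.810 ± 0.475 and Krt2 0.0143 ± 0.0248 (SD, n = 3). Krt14, Krt10, Krt1 and Krt5 overlapped between libraries. Within a library Krt14 exceeded Krt10 in knockout replicates 1 (1410 against 1028 FPKM) and 2 (1645 against 1454) and was just below it in replicate 3 (503 against 523). Per spliced transcript knockout Krt1 stood at 1099 ± 502 FPKM, against 1228 ± 624 for Krt14 and 1011 ± 470 for Krt10 (SD, n = 3), and the 3 genes overlapped. In each wild type library Krt10 was above Krt14 by 3.10-fold to 5.94-fold.

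As shares of the summed FPKM of the 7 genes, Krt14 made up between 8.66% and 13.1% in the wild type and between 30.8% and 36.5% in the knockout. Krt5 made up between 11.4% and 18.3%, against 14.6% to 17.8% in the knockout, and the groups overlapped. Krt10 made up between 40.7% and 51.4%, against 25.8% to 32.3% in the knockout. Krt1 had 21.8% to 23.9% and 16.4% to 20.1%, Krt15 4.83% to 6.67% and 0.178% to 1.55%. Summed suprabasal FPKM over summed basal FPKM was 1.93, 3.02 and 1.67 in the wild type, against 0.849, 0.950 and 0.999 in the knockout. The groups did not overlap, and the ratio was lower in each knockout library. Which sum is the larger in the knockout depends on the length used for Krt1. Per spliced transcript of each gene the ratio was 2.46, 3.72 and 2.10 in the wild type and 1.12, 1.18 and 1.26 in the knockout, so that the suprabasal sum was then above the basal sum in all 6 libraries. The shares of Krt1 are likewise understated at its deposited length.

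**Figure D2:**
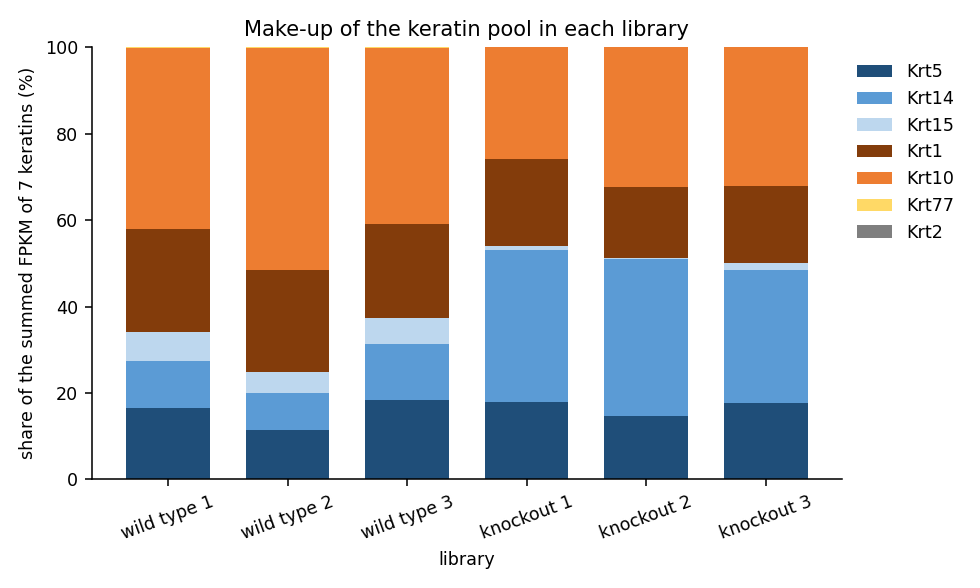
Share of each keratin in the summed FPKM of the 7 genes (vertical axis, percent) in each of the 6 libraries, basal genes in blue and suprabasal genes in orange, yellow and grey. Krt14 holds 8.66% to 13.1% of each wild type bar and 30.8% to 36.5% of each knockout bar, and Krt77 and Krt2 are too small to see.

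Ratios within a library do not depend on how libraries are scaled. Of 10 planned gene pairs 8 could be computed, since Krt2 is listed at 0 in 2 libraries. With 3 libraries against 3, the exact permutation test cannot go below p = 0.1. The ratio of Krt14 to Krt5, the basal type I and type II partners, was 0.662, 0.760 and 0.716 in the wild type and 1.99, 2.50 and 1.75 in the knockout. The groups did not overlap, and the ratio was 2.89-fold higher in the knockout (exact permutation p = 0.1, two-sided, 0.114 after Benjamini-Hochberg adjustment over 8 ratios). Krt15 over Krt5 was 0.404, 0.423 and 0.331 in the wild type and 0.0507, 0.0121 and 0.0877 in the knockout. That ratio was 10.2-fold lower, again without overlap (exact permutation p = 0.1, 0.114 adjusted). Its log2 change of -3.34 was -2.53 without knockout replicate 2 and -3.95 without knockout replicate 3. The pair Krt15 and Krt14, both type I and both basal, separated most, with a ratio of 0.611, 0.557 and 0.461 in the wild type and 0.0255, 0.00487 and 0.0501 in the knockout. This is 29.3-fold lower (exact permutation p = 0.1, 0.114 adjusted). The log2 change of -4.87 was -3.91 without knockout replicate 2 and -5.60 without knockout replicate 3.

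The suprabasal partners kept closer proportions. Krt10 over Krt1 was 1.75, 2.19 and 1.87 in the wild type and 1.28, 1.96 and 1.80 in the knockout, and the groups overlapped (1.16-fold lower, exact permutation p = 0.5, 0.5 adjusted). Per spliced transcript of Krt1 and Krt10, a choice made after seeing the data, the same ratio ran from 0.980 to 1.23 and from 0.719 to 1.10. Krt77 over Krt1 fell outside the wild type range in all 3 knockout libraries, with 0.00650, 0.00690 and 0.00407 in the wild type and 0.00148, 0.00131 and 0.000948 in the knockout. Krt10 over Krt77 accordingly was 3.98-fold higher (exact permutation p = 0.1, 0.114 adjusted). With 1 added to each FPKM, which weighs on the low Krt77 values, the log2 change of Krt77 over Krt1 was -0.88 instead of -2.21 and that of Krt10 over Krt77 was 0.66 instead of 1.99.

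Between layers, Krt10 over Krt14 (type I) was 3.82, 5.94 and 3.10 in the wild type and 0.729, 0.884 and 1.04 in the knockout, 4.72-fold lower without overlap. Krt1 over Krt5 (type II) was 1.45, 2.06 and 1.19 in the wild type and 1.13, 1.12 and 1.01 in the knockout, 1.40-fold lower and separated only narrowly. Both had an exact permutation p of 0.1 (0.114 adjusted). These are single pairs of genes, and the difference between their shifts was not tested. Krt15, also basal and type I, fell further than Krt10 (73.7-fold against 13.6-fold). Summed type I over summed type II FPKM was 1.46, 1.85 and 1.49 in the wild type and 1.63, 2.22 and 1.82 in the knockout, and the groups overlapped.

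**Figure D3:**
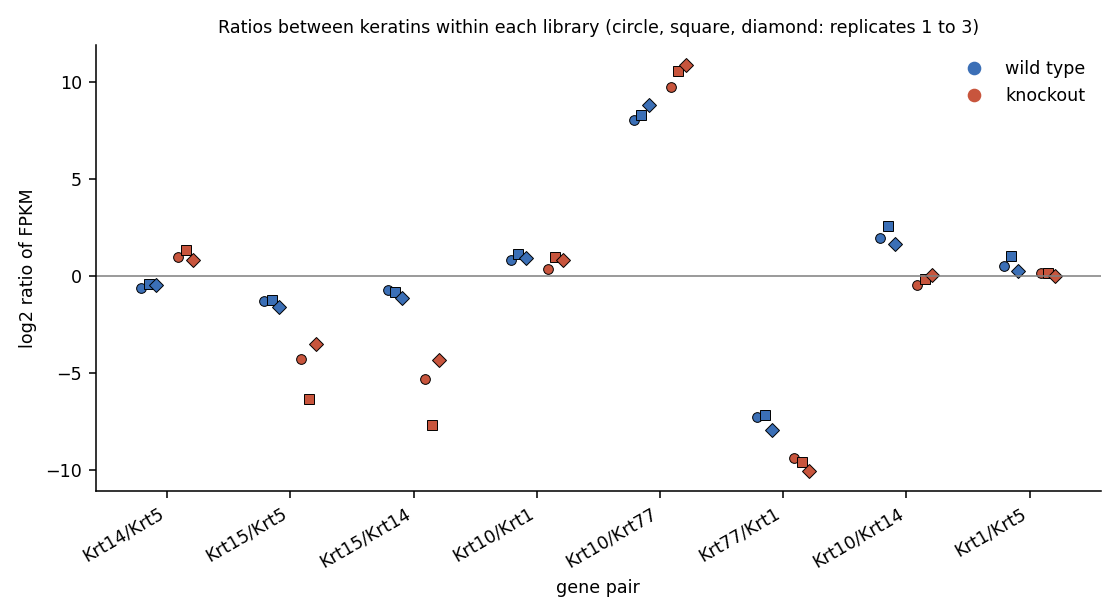
Log2 ratio of FPKM (vertical axis) between 2 keratins in each library, for the 8 pairs on the horizontal axis, with wild type in blue and knockout in red and symbols for replicates 1 to 3. The groups are apart for 7 pairs and overlap for Krt10 over Krt1, where the wild type ratio is 1.75 to 2.19 and the knockout ratio 1.28 to 1.96.

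The 20 epithelial genes without keratins were themselves mostly lower (16 lower, 1 higher and 3 not called, median log2 fold change -1.91). Their summed CPM (mean 17524 in the wild type) rests most on Lgals7 (5357 ± 1359 CPM, SD, n = 3), Dsp (3116 ± 197 CPM) and Perp (2789 ± 736 CPM). Set against the summed CPM of the 20 genes, Krt5 stood at 0.618, 0.475 and 0.604 in the wild type and at 0.266, 0.277 and 0.275 in the knockout. The 3 knockout libraries were nearly equal on this scale (0.273 ± 0.00557, SD, n = 3). Krt14 stood at 0.327, 0.289 and 0.346 in the wild type and at 0.423, 0.552 and 0.385 in the knockout, so that here every knockout library was above the wild type. Krt15 (0.161 to 0.201 against 0.00270 to 0.0194), Krt1 (1.44 to 1.97 against 0.559 to 0.625) and Krt10 (1.29 to 2.06 against 0.371 to 0.587) were lower in each knockout library.

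The same question was put to the fit over all genes, with each library scaled to the geometric mean of these 20 genes. On this scale 5 of the 6 tested members were lower, where 5.01% of all genes tested were lower and the median log2 fold change of all genes was 1.68. Krt15 (-4.52 ± 0.68 SE, edgeR adjusted p = 3.23e-10) and Krt77 (-4.18 ± 0.58 SE, adjusted p = 8.08e-12) fell most. Krt10 (-2.16 ± 0.64 SE, adjusted p = 0.00176), Krt1 (-1.96 ± 0.64 SE, adjusted p = 0.00425) and Krt5 (-1.47 ± 0.62 SE, adjusted p = 0.0270) followed. Krt14 had a log2 fold change of 0.10 ± 0.61 SE (95% interval -1.09 to 1.29, edgeR adjusted p = 0.885), opposite in sign to its change under TMM scaling.

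**Figure D4:**
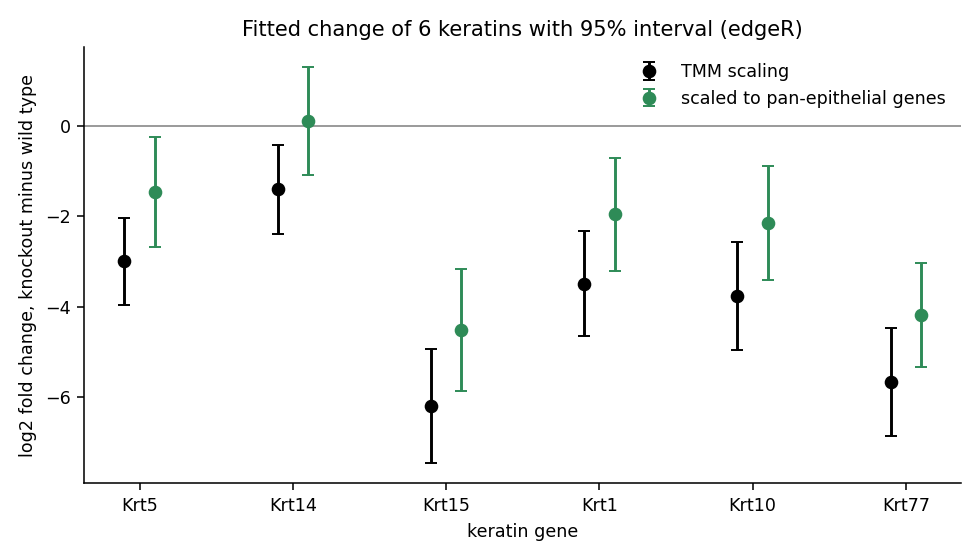
Fitted log2 fold change, knockout minus wild type, of the 6 tested keratins with its 95% interval, under TMM scaling (black) and with libraries scaled to 20 epithelial genes (green). The green points lie above the black ones throughout, and only Krt14 crosses 0, from -1.41 to 0.10.

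The keratin genes around the members moved in both directions. Of the 48 other keratin genes 30 were tested, with 10 lower, 10 higher and 10 not called (median log2 fold change 0.15). Over all genes tested 25.1% were lower and 28.7% higher, so changes in both directions were common in the whole table too. Krt79 (469 ± 161 to 51.9 ± 13.1 CPM, SD, n = 3), Krt78 (230 ± 113 to 34.2 ± 17.9 CPM), Krt23 (203 ± 66.3 to 46.6 ± 33.7 CPM) and Krt80 (198 ± 10.03 to 83.7 ± 29.8 CPM) fell. With libraries scaled to the epithelial genes, Krt80 and Krt17 changed sign and Krt23 was not called. In the type II cluster Krt5 lies next to Krt6a, a wound keratin that rose from 8.85 ± 6.93 to 1106 ± 479 CPM, and Krt6b rose from 20.5 ± 15.5 to 1338 ± 712 CPM. In the type I cluster Krt16, the wound keratin after Krt14 in position, rose from 48.8 ± 10.3 to 2129.5 ± 1152.5 CPM, and Krt13, a keratin of mucosal linings next to Krt15, rose from 1.36 ± 0.358 to 172 ± 87.2 CPM. Krt4, the type II partner of Krt13, rose from 0.241 ± 0.0762 to 76.7 ± 45.2 CPM, and Krt7 (19.6 ± 2.59 to 56.0 ± 34.8 CPM) and Krt75 (1.27 ± 1.32 to 53.6 ± 50.6 CPM) rose too. Krt17 had 1635 ± 88.4 CPM in the wild type and 1303 ± 539 in the knockout (edgeR adjusted p = 0.467), and Krt42 0.534 ± 0.299 and 67.1 ± 111 CPM (adjusted p = 0.0759).

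**Figure D5:**
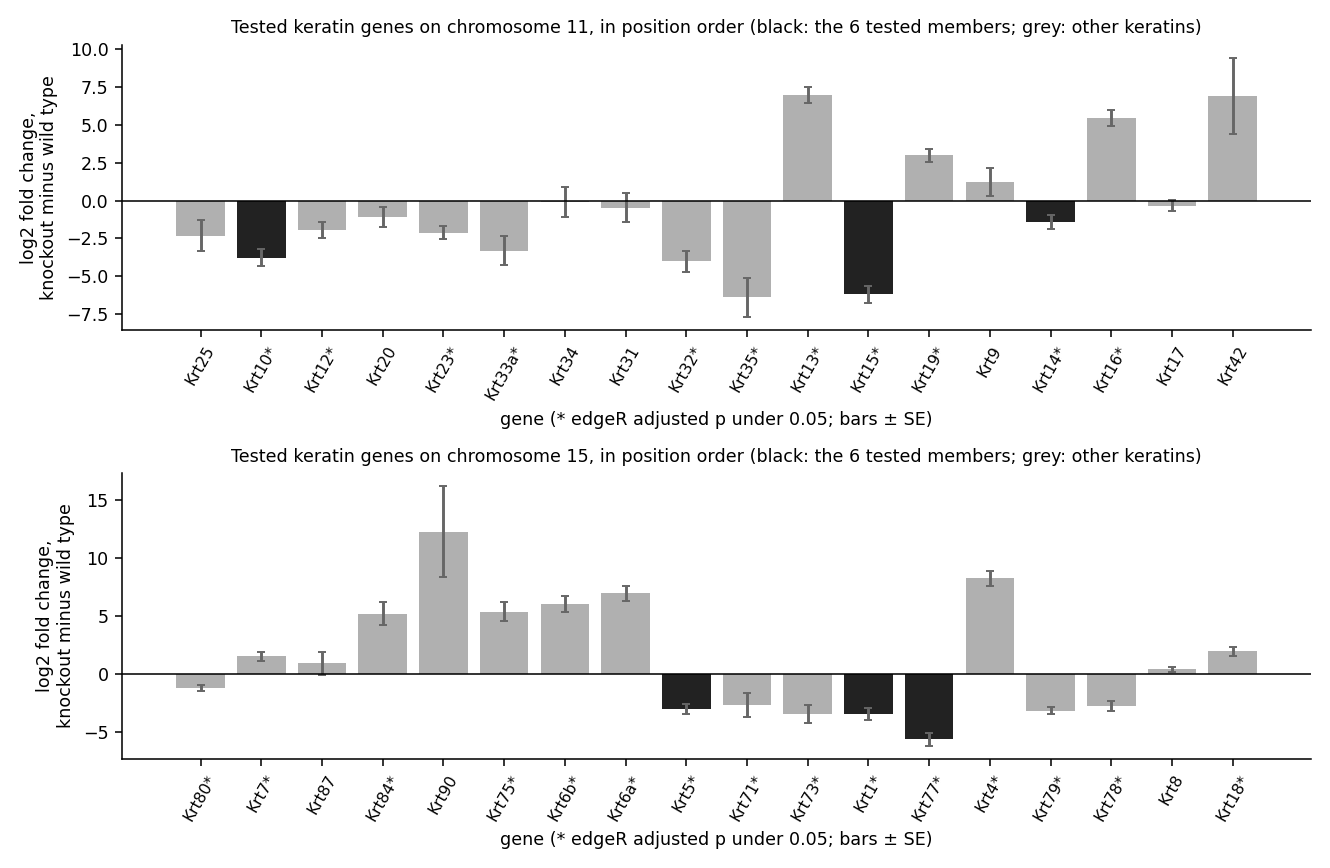
Log2 fold change, knockout minus wild type, with bars of 1 SE for every tested keratin gene of the clusters on chromosomes 11 and 15, in position order, with the 6 tested members in black and an asterisk at an edgeR adjusted p under 0.05. The black bars all point down, while grey neighbours such as Krt6a, Krt16 and Krt13 point up.

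Related keratins share stretches of sequence, which bears on how reads are assigned. Of the 50-base words of the Krt14 transcript 14.4% also occur in transcripts of another gene, mostly Krt16 (188 words) and Krt17 (55). For Krt5 the share was 12.2%, mostly with Krt6a (150 words). It was 0.666% for Krt15, and no word of Krt1, Krt2 or Krt77 was shared. Krt16 and Krt6a were the genes that rose, and the part of shared reads in the levels of Krt14 and Krt5 was not tested. Krt10 overlaps the antisense gene Gm11940, with which it shares 2.45% of its words. Gm11940 had 516, 228 and 166 counts in the wild type and 47, 7 and 7 in the knockout. Since no strand setting is given, reads from the shared stretch cannot be told apart between these genes. Krt10 itself had 407676, 698315 and 416404 counts in the wild type and 38760, 47597 and 17789 in the knockout.

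Other genes of the same layers also fell, but not all. Of 19 basal layer genes tested that are no keratins 15 were lower and 2 higher (median log2 fold change -2.54). The transcription factor gene Sox6 (57.8 ± 12.5 to 3.34 ± 0.592 CPM, SD, n = 3) and the growth factor gene Ptn (109 ± 1.19 to 6.93 ± 2.18 CPM) fell with the smallest adjusted p, and the integrin gene Itgb1, which many cell types express, rose from 170 ± 19.2 to 905 ± 236 CPM. In the spinous layer list 14 of 20 genes fell and 3 rose (median -2.29). Clca3a2 (129 ± 15.8 to 1.53 ± 0.891 CPM) and the immunoglobulin-like gene Skint3 (39.9 ± 9.98 to 6.77 ± 1.67 CPM) fell, and the desmosomal cadherin gene Dsc2 rose from 5.82 ± 0.256 to 156 ± 95.02 CPM. Of 20 genes of the granular layer 14 were lower and 4 higher (median -2.27). Lce1m (2161 ± 916 to 17.7 ± 13.3 CPM) and the protease gene Casp14 (637 ± 73.6 to 40.2 ± 21.96 CPM) fell, and the envelope gene Rptn rose from 3.13 ± 1.21 to 379 ± 200 CPM. Scaled to the 20 epithelial genes, the basal list had 9 genes lower and 3 higher. The spinous list then had 3 lower and 5 higher, and the granular list 8 lower and 5 higher. That scale itself holds Trp63 of the basal list and Lgals7 of the spinous list. On that scale 10845 of all 16471 genes tested were higher and 826 (5.01%) lower.

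A list of genes linked to the anchoring or organisation of keratin filaments, not all of which encode anchoring proteins, was mostly lower. Of its 20 genes 14 were lower and 1 higher (median log2 fold change -1.92). The plakin-family gene Eppk1 fell from 121 ± 15.5 to 11.3 ± 6.51 CPM and Fam83h, whose protein helps arrange keratin filaments, from 110 ± 14.5 to 24.5 ± 10.3 CPM. The gene called higher was the protease inhibitor gene Cstb, which rose from 89.3 ± 19.7 to 338 ± 87.5 CPM. Desmoplakin (Dsp), which ties keratins to desmosomes, fell from 3116 ± 197 to 560 ± 311 CPM. Scaled to the 20 epithelial genes, 2 genes of this list were lower and 5 higher, and that scale holds Dsp, Jup and Pkp3 themselves. Of all 16471 genes tested 10845 were higher on it and 826 lower.

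Of 37 tested transcription factors and Notch pathway genes linked to keratin genes or to the basal to spinous switch, 21 were lower and 9 higher (median log2 fold change -1.26). Trp63, which encodes p63, a driver of Krt5 and Krt14 transcription, fell from 521 ± 87.0 to 59.3 ± 30.5 CPM. The POU factor genes Pou3f1 (238 ± 34.3 to 3.09 ± 0.560 CPM) and Pou2f3 (191 ± 3.23 to 4.32 ± 2.12 CPM) had log2 fold changes of -6.26 and -5.46, the lowest of the list. The chromatin organiser gene Satb1 fell too (188 ± 23.6 to 13.7 ± 1.85 CPM). The AP-2 genes Tfap2b, Tfap2c and Tfap2a also fell (log2 fold change -3.22, -2.76 and -1.63), as did Dlx3 (-3.90), Gata3 (-3.83), Thrb (-2.89), Grhl2 (-2.47) and Zfp750 (-2.41). Smaller falls were those of Hes1 (-2.37), Klf5 (-2.02), Rxra (-1.89), Ovol2 (-1.51), Klf4 (-1.40), Cebpa (-1.26) and Hr (-1.08).

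The genes of this list that rose were led by Maf (47.6 ± 3.24 to 1218 ± 139 CPM), Rbpj (53.4 ± 2.96 to 282 ± 55.0 CPM) and the AP-1 gene Fosl1 (1.79 ± 0.629 to 29.6 ± 19.8 CPM). Junb (1.91), Cebpb (1.27), Notch2 (1.21), Jun (1.17) and Fos (1.03) also rose on the log2 scale. Fos lost its call in 8 of the alternatives. Macrophages express Maf as well, and all 15 macrophage genes were higher in the knockout. Grhl1 (-0.88), Notch1 (-0.65), Sp1 (-0.44), Vdr (-0.30), Fosl2 (-0.29), Grhl3 (-0.13) and Ovol1 (0.30) were not called. With libraries scaled to the 20 epithelial genes, which include Trp63, Grhl2 and Ovol1, 10 regulators were lower and 14 higher. Klf4, Cebpa, Ovol2 and Hr changed sign. Over the whole table, 10845 of 16471 genes tested were higher on that scale and 826 lower.

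Markers of other cells moved with the same contrast. All 15 macrophage genes were higher, with a summed level of 583 to 668 CPM in the wild type and 12053 to 21701 CPM in the knockout, led by Mrc1 (6.44 ± 1.19 to 6063 ± 1663 CPM). All 8 of 12 neutrophil genes that were tested were higher (sum 2.23 to 3.22 against 3426 to 8408 CPM, led by S100a9, with Ly6g and Retnlg at 0 in the wild type). Most of the knockout sum was S100a9 (2637 ± 1265 CPM) and S100a8 (2158 ± 1082 CPM), ahead of Csf3r (675 ± 115 CPM). Ly6g, Mpo, Elane and Camp, not tested, had knockout means of 1.20, 0.637, 0.365 and 0.548 CPM. Fibroblast genes were higher for 13 of 14 and lower for 1 (1039 to 1140 against 5018 to 12293 CPM, led by Col1a1). Endothelial genes were higher for 6 of 7 tested (4.88 to 8.18 against 201 to 368 CPM). Most of that sum was Pecam1 (1.20 ± 0.403 to 251 ± 84.1 CPM), and the next highest knockout mean was 13.0 CPM (Vwf). Cdh5 and Kdr had 7.15 and 7.98 CPM in the knockout, and Emcn 0.0979 CPM against 0 in the wild type. All 7 red blood cell genes (3.87 to 8.07 against 961 to 1922 CPM, led by Hba-a1) were higher. All 4 of 8 fat cell genes tested were higher (17.2 to 35.9 against 295 to 629 CPM). Of these, Fabp4 had 353 ± 157 CPM and Lpl 132 ± 49.7 CPM in the knockout. Adipoq and Plin1, not tested, were at 0 in the wild type and Lep at 0 throughout. Knockout Adipoq (0.680 ± 1.18 CPM) and Plin1 (1.02 ± 1.77 CPM) stayed low, with an SD above the mean. Langerhans cell genes were higher for 6 of 7 tested (182 to 212 against 286 to 443 CPM, led by Cd74). The gene of that list that fell was Epcam (130 ± 17.0 to 35.8 ± 12.5 CPM). Cd207, too low to be tested, was at 0 in the wild type and at 0.166 ± 0.130 CPM in the knockout. Skeletal muscle genes were higher for 4 of 6 tested (7.59 to 7.97 against 20.4 to 29.9 CPM). Mylpf, the most abundant, had 6.03 CPM in the wild type and 3.24 in the knockout, and Tnnc2 had 0 and 0.0436 CPM.

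Melanocyte genes were higher for 2 and lower for 4 of 8 (451 to 648 against 233 to 381 CPM, led by Dct), and T cell genes higher for 2 and lower for 3 of 9 tested (30.3 to 50.3 against 108 to 146 CPM, led by Thy1, which fibroblasts also express). The part of these cells in the keratin levels was not tested.

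For each member the 3 genes with the most similar profile were sought among 11225 protein-coding genes, by the root mean square difference in log2(CPM + 0.5) over the 6 libraries after centring on the wild type mean. Closest to Krt5 were Efna1 (0.14), Wnt4 (0.15) and Fam25c (0.17), and closest to Krt14 were Cdkn2b (0.13), Tmem238 (0.14) and Rbp2 (0.17). Krt1 was nearest to Them5 (0.15), Skint1 (0.16) and Clu (0.17), and Krt10 to Sdr16c5 (0.22), Them5 (0.23) and Wnt3a (0.25). Them5 is thus on the lists of both suprabasal partners. Krt15 and Krt77 had no profile as close, with Vwa2 (0.32), Gprin2 (0.43) and Clca3a2 (0.49) for Krt15 and Serpina12 (0.33), Skint7 (0.40) and Slc46a2 (0.44) for Krt77. The nearest genes to Krt2 (Sumf2, Fuz and Tob1, 0.10 to 0.12) are not read further, since Krt2 lay near 0 against the constant of 0.5. With 2 groups of 3 libraries these distances mostly measure the size of the group difference.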

How the data were processed

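Epidermal RNA-seq was used from 6 libraries, 3 with the label Paxbp1 knockout and 3 with the label wild type. The authors deposited whole-number read counts per gene and FPKM values for 54532 genes. HISAT2 2.0.5, featureCounts 1.5.0-p3 and build mm10 are named per the submitters' processing notes, while the sources used here give no parameters, strand setting or annotation release. Tested on the files, the deposited FPKM values equal the counts divided by gene length and by 1 number per library, which was 0.891 to 1.17 times the count total.

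Counts were tested with edgeR 4.0.16 (R 4.3.3): TMM factors, expression filter (minimum count 10, total 15), robust quasi-likelihood test on genotype, Benjamini-Hochberg adjustment over the 16471 genes tested, threshold 0.05. The SE was taken as the size of the log2 fold change divided by the root of the F statistic. The epithelial scaling set each library to the geometric mean of 20 genes (counts plus 0.5). Ratios used deposited FPKM with an exact permutation test (scipy 1.17.1). For Krt2 the FPKM of 0 precluded the 2 planned ratios. Named were the 7 members, from each layer, anchoring and regulator list 2 genes moving with most of the list and 1 moving against it, by smallest adjusted p, regulators with at least 5 CPM in a group, other keratins with at least 50 CPM, the most abundant gene of each cell type list, and the nearest profiles. Dsp, Gm11940, Trp63 and the genes listed at 0 were named outside or beside that rule. The members and lists were chosen with earlier results of these data known. Lamb4 and Znf750 matched no gene of the table. Some genes that the rule would name are not reported here.

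Same-numbered libraries deviated together (correlation over genes 0.275, 0.415 and 0.203, against -0.398 to 0.0899 for other pairs). No label explains the numbers, so the pairing rests on these correlations. No pair of libraries within a group was a duplicate (chi-square of counts per degree of freedom 29.8 to 80.5). The test was run on simulated data with 50 genes changed at each fold. It recovered 2% of the 1.5-fold, 30% of the 2-fold, 88% of the 4-fold and 100% of the 8-fold changes, with 3 false calls. Far fewer genes were changed there than were called here, so the simulation does not probe the scaling under this contrast. Alternatives were other scalings, filters, DESeq2 1.42.0, limma 3.58.1 (voom, and trend on log2 FPKM), a replicate block and left-out libraries.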

Additional observations from a re-analysis of the deposited data

How the results depend on the processing

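Krt5, Krt15, Krt1, Krt10 and Krt77 kept their direction and their call under each of the 20 alternatives, and apart from the epithelial scaling their log2 fold changes stayed within -3.28 to -2.68, -6.71 to -5.79, -3.85 to -3.15, -4.13 to -3.38 and -6.12 to -4.45. Krt14 was the exception. Its log2 fold change was 0.10 with libraries scaled to the 20 epithelial genes, -1.55 on both FPKM scales (log2 of FPKM plus 1 or 0.1, not called), and -1.72 to -1.03 with 1 library left out. That epithelial scaling also took the genes called over the whole table from 4721 higher and 4139 lower to 10845 and 826, since it moves the median of all genes to 1.68. With the replicate block, the paired fit, 5089 genes were higher and 4792 lower, Krt14 fell by 1.56 on the log2 scale (edgeR adjusted p = 0.0109), and no call of a member changed. All 8 ratios kept their sign, though not their size, with counts, with FPKM plus 1, in pairs and with any library left out. The change of Krt10 over Krt1 then ran from -0.34 to -0.036 on the log2 scale. In pairs the exact sign-flip p was 0.25 for each ratio, the smallest that 3 pairs allow. No fold of Krt10 over Krt2 or Krt2 over Krt1 was computed. Krt2 rests on 21 counts in the wild type and 2 in the knockout, and depth limits what can be said of it.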

Other observations

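Keratins of the hair follicle, chosen after their values were seen, moved in both directions. Krt71 and Krt73, type II keratins of the inner root sheath, had 8.94 ± 12.3 and 5.47 ± 4.76 CPM in the wild type and 1.38 ± 0.421 and 0.5001 ± 0.437 CPM in the knockout (SD, n = 3; edgeR adjusted p = 0.0473 and 0.00285). The hair keratins Krt32 (3.73 ± 0.266 to 0.225 ± 0.202 CPM, adjusted p = 0.000535) and Krt35 (2.32 ± 2.72 to 0.0189 ± 0.0327 CPM, adjusted p = 0.00163) fell as well. The hair keratin Krt33a also fell (1.05 ± 0.472 to 0.0944 ± 0.163 CPM, adjusted p = 0.0137), whereas Krt84 rose (0.0899 ± 0.0830 to 3.64 ± 3.77 CPM, adjusted p = 0.00105), as did the follicle keratin Krt75. The wild type SD of Krt71 and Krt35 exceeded the mean, and all levels given here are low.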
